A study of Rattus norvegicus with 24 samples.

Results

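The genes described here encode the proteins of the cytosolic ribosome. They were taken by symbol: every gene named Rpl or Rps with a number, Rplp with a number, or Rpsa, leaving out the S6 kinases and pseudogenes, wherever a probe set named that gene alone. This gave 42 of 13438 measured genes, 30 of the large subunit and 12 of the small subunit, each read through its brightest probe set. Of the P-stalk genes only Rplp0 had a probe set of its own.

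The livers came from male Sprague Dawley rats, an outbred strain, aged 8 weeks. Each rat received 1 intragastric dose of alpha-naphthylisothiocyanate (ANIT) or of corn oil, the vehicle. ANIT is toxic to the bile ducts and the liver cells next to them in rodents, and the labels place the peak of that injury at 24 h and its resolution at 120 h. The 4 groups of 6 separate rats, with 1 array per rat, were ANIT at 50 mg/kg read at 24 h, vehicle at 24 h, ANIT at 50 mg/kg read at 120 h, and vehicle at 120 h. All were dosed in 10 ml/kg of corn oil, fasted overnight for about 18 h before necropsy, and injected about 2 h before it with 100 mg/kg of the DNA label BrdU. RNA of a piece of liver was amplified and biotin-labelled, and expression is given as log2 values on which a step of 1 is a doubling. Precision throughout is limited by having 6 arrays in a group.

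A cytosolic ribosome joins a small subunit, which holds the mRNA and decodes it, to a large subunit, which forms peptide bonds and carries the tunnel through which the new chain leaves. The proteins are made in matched amounts, assembled with ribosomal RNA in the nucleolus, and used in the liver largely for secreted proteins. Mammalian ribosomal protein mRNAs are known for a 5′ terminal oligopyrimidine (TOP) tract, a C at the first base followed by further C or T letters, through which the kinase mTOR controls their translation.

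Sequences around the annotated start were taken from RefSeq (assembly GRCr8) for the 36 of 42 genes that had an entry, to set the TOP tract beside the array values. The search asked, on the strand of the gene, for C at the annotated start followed by at least 4 letters that are each C or T. It was met by 10 of 36 genes (27.8%), namely Rpl14, Rpl19, Rpl28, Rpl34, Rpl35, Rpl35a, Rpl39, Rplp0, Rps14 and Rps15, against 2.63% of 33469 promoters in the table. Such a run began anywhere in the 20 bases before or the 10 bases from the annotated start on in 29 of 36 genes (80.6%) and in 39.2% of all promoters. The stretches below span that window of 30 bases, with the run at the start in capitals. They show 4 genes with the run that rose at 24 h, then Rpl35a, which has the run and did not. Rpl3 and Rps9 follow, which rose without a run at the annotated start. In Rps9 such a run began elsewhere in the window, and in Rpl3 it did not.
Rplp0, chr12:46718381-46718410, minus strand: ctggtgaccgcaccgcacttCTCTCgccag
Rpl28, chr1:78083523-78083552, minus strand: tgtcgccccgcccctagtgtCTTTCTTTCC
Rpl35, chr3:43165912-43165941, minus strand: ggccccgccccttcctctttCTCTCgaacc
Rpl39, chrX:121195887-121195916, minus strand: cagcgtcttctaatcgcgttCTTCCggcct
Rpl35a, chr11:81235012-81235041, minus strand: gcgcggcgggtcttgccttcCTCTTTCCgc
Rpl3, chr7:113507981-113508010, minus strand: ctgcaccagcgcctgctcgatctctatcgg
Rps9, chr1:74430428-74430457, minus strand: cgcgatccggcggccacgtttctctttgtc
A run is a match of letters at an annotated start and was not tested as a working TOP tract.

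Most ribosomal protein probe sets were bright in every group. The mean level over all arrays lay between 6.93 and 12.6 for 38 genes, where the highest value of any probe set on the arrays was 13.5. The other 4, Rps4y2, Rpl3l, Rpl26l1 and Rpl39l1, had mean levels of 4.02 to 5.16. Levels of different genes come from different probes and are not compared. The spread between rats was small: the median SD of the 42 genes at 24 h was 0.11 in ANIT and 0.12 in vehicle rats, and at 120 h it was 0.20 in ANIT and 0.11 in vehicle rats. Over all genes that median at 24 h was 0.20 in ANIT and 0.24 in vehicle rats, and at 120 h it was 0.25 in ANIT against 0.19 in vehicle livers.

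At 24 h, ribosomal protein transcripts were higher in ANIT livers by a small amount that many of the genes shared. Genes were tested with limma, p values were adjusted over all 13438 genes by the Benjamini-Hochberg method, and a gene is called at an adjusted p under 0.05. Of the 42 genes, 14 rose (33.3%), 0 fell and 28 were not called, where 12.9% of all genes rose and 5.31% fell. Fitted without genes of a mean level under 5, 19 of 39 ribosomal protein genes rose, where 19.1% of the 9575 genes left did. The change was above 0 in 39 of 42 genes, against 50.7% of all genes. At an unadjusted limma p under 0.05 in either direction there were 29 of the 42, against 30.9% of all genes. They include Rpl26l1, whose change was below 0. The median change was 0.23 on the log2 scale, a fold of 1.17, beside 0.0046 over all genes. All 6 ANIT rats lay above all 6 vehicle rats in 10 of the 42 genes (Rpl3, Rpl4, Rpl7l1, Rpl28, Rpl23a, Rpl12, Rpl27, Rpl34, Rps6 and Rps15a), a separation seen in 5.54% of all genes. In whole liver, more cells of a type and more RNA per cell cannot be told apart.

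**Figure D1:**
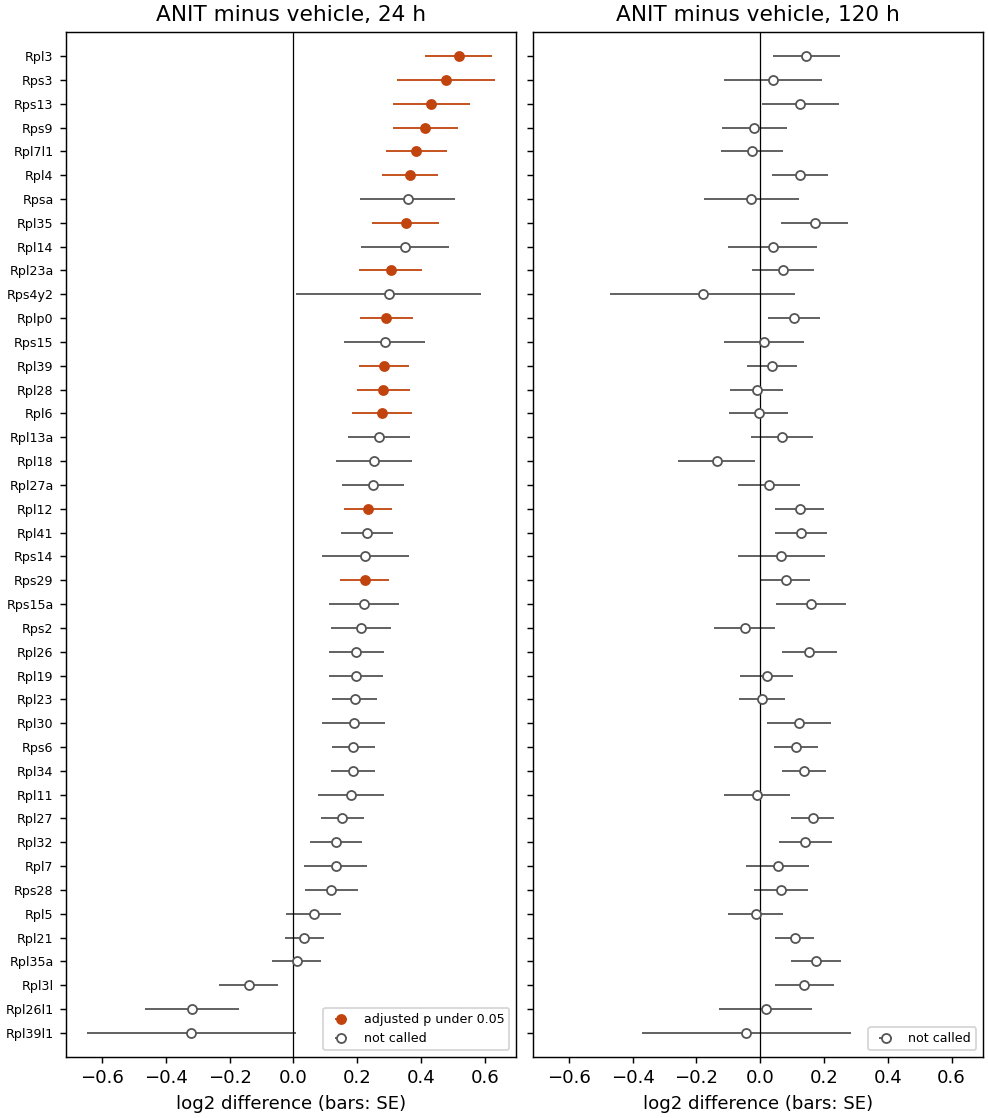
Difference between ANIT and vehicle rats for each of the 42 genes at 24 h (left) and 120 h (right), in log2 units with bars for the standard error of the fit, n = 6 and 6 arrays. Filled points mark the 14 genes called at 24 h, all to the right of 0, and no gene was called at 120 h, where the points run from -0.18 to 0.18.

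Technical measures of the arrays were set beside this result, and their part in it was not tested. The beta-actin control probe sets report on RNA quality through the log2 ratio of their 3′ to their 5′ signal, which was 2.98 to 3.18 in ANIT rats of 24 h against 2.77 to 2.91 in vehicle rats, without overlap. At 120 h it was 2.48 to 2.93 in ANIT and 2.76 to 2.98 in vehicle rats. The same ratio of the Gapdh probe sets lay the other way at 24 h, at 1.55 to 1.66 (mean 1.62) in ANIT and 1.62 to 1.82 (mean 1.71) in vehicle rats, and the ranges overlapped. The level of 9 spiked hybridisation controls at 24 h averaged 10.81 ± 0.25 in ANIT and 11.16 ± 0.38 in vehicle rats (SD, n = 6, two-sided exact permutation p = 0.0909, adjusted p = 0.268 over 4 tests). The SD of all values on an array at 24 h averaged 2.00 ± 0.06 in ANIT and 1.93 ± 0.09 in vehicle rats (SD, n = 6, exact permutation p = 0.134, adjusted p = 0.268). The 6 arrays with the smallest SD were 3 of vehicle at 24 h (replicates 3 to 5) and 3 of ANIT at 120 h (replicates 4 to 6). With the control level in the model, 8 ribosomal protein genes were called higher at 24 h, against 9.62% of all genes, and the median change was 0.13. Without the 6 narrowest arrays, 4 were called higher, against 6.11% of all genes, with 41 of 42 above 0 and a median of 0.19. With the beta-actin ratio as a covariate 0 were called by limma, against 3.44% of all genes. In that fit 3 had an unadjusted p under 0.05, 38 of 42 were above 0 and the median was 0.18. Because this ratio did not overlap between the groups of 24 h, it and ANIT cannot be told apart there. Leaving out 1 rat gave 8 calls for ANIT 24 h replicate 6 and for vehicle 24 h replicate 2, and 9 for replicate 3 of either group of 24 h. Of the 14 called genes, 8 were called in all 24 fits that left out 1 rat. The others were Rpl35 (called in 22), Rpl23a (19), Rpl12 (18), Rps3 (17), Rpl6 (15) and Rps29, which was called in 11, and the control level in the model also ended these 6 calls. The rats whose omission ended at least 1 of the 6 were ANIT 24 h replicates 1 to 6, vehicle 24 h replicates 2 to 6, and vehicle 120 h replicates 2, 4 and 6.

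**Figure D2:**
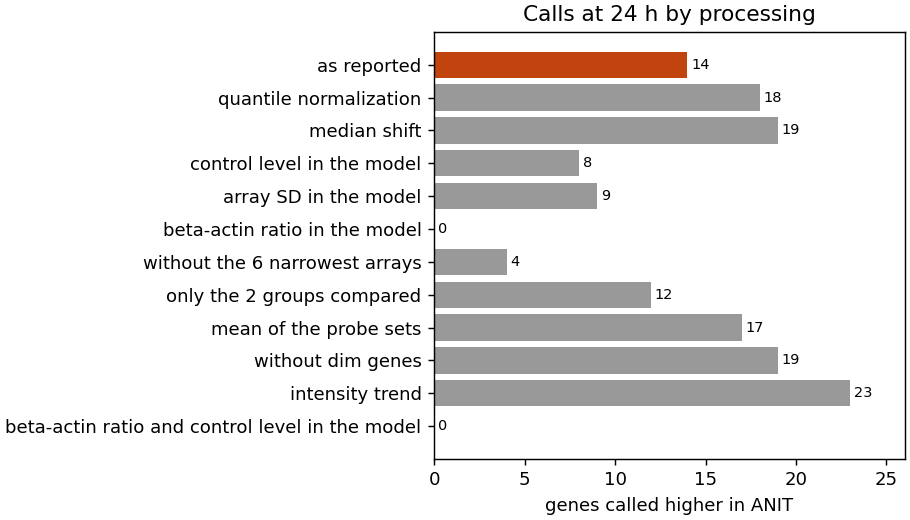
Number of ribosomal protein genes called higher in ANIT than in vehicle rats at 24 h by limma under each processing setting, with the reported setting in colour. The count runs from 0 where the beta-actin ratio was a covariate to 23 with an intensity trend in the variance model, and is 14 as reported. Counts are of 42 genes, or of the 39 left when dim genes were dropped. Of all genes, 3.44% rose with the beta-actin ratio, 12.9% as reported, 13.1% with the intensity trend and 19.1% without dim genes.

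Among proteins at the core of the large subunit, Rpl3, which lies beside the peptidyl transferase centre, moved furthest. Rpl3 lay between 11.23 and 11.60 (median 11.47) in ANIT rats at 24 h, against 10.70 to 11.17 (median 10.94) in vehicle rats. Every ANIT rat was above every vehicle rat, and Rpl3 rose 1.43-fold (log2 change 0.52 ± 0.10, standard error, adjusted p = 0.000818). Rpl4, part of the wall of the exit tunnel, lay between 11.52 and 11.78 (median 11.65) in ANIT rats, against 11.17 to 11.40 (median 11.27) in vehicle rats. These groups did not overlap either, and Rpl4 rose 1.29-fold (0.37 ± 0.09, adjusted p = 0.00414). Rpl28, a protein of eukaryotic large subunits without a bacterial counterpart, lay between 11.64 and 11.85 (median 11.77) in ANIT and between 11.36 and 11.60 (median 11.46) in vehicle rats. It rose 1.22-fold, again with no overlap (0.28 ± 0.08, adjusted p = 0.0171).

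Of the genes whose proteins lie in or around the exit tunnel, Rpl39, Rpl23a and Rpl35 also rose, while Rpl19 (0.20, adjusted p = 0.107) and Rpl26 (0.20, adjusted p = 0.117) were not called. Rpl39, a very short protein inside the tunnel, lay between 7.27 and 7.52 (median 7.39) in ANIT rats and between 6.97 and 7.32 (median 7.10) in vehicle rats. Only the highest vehicle rat, replicate 1, reached into the ANIT range, and Rpl39 rose 1.22-fold (0.28 ± 0.08, adjusted p = 0.0122). Rpl23a, at the tunnel exit where the signal recognition particle docks, rose by 0.30 ± 0.10 (adjusted p = 0.0308) without overlap. Its neighbour Rpl35 rose by 0.35 ± 0.10 (adjusted p = 0.0191), with ANIT rats at 11.30 to 11.63 and vehicle rats at 10.89 to 11.36. The ranges of Rpl35 overlapped through ANIT replicate 4 at 11.30 and vehicle replicate 1 at 11.36.

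The stalk of the large subunit recruits translation factors. Rplp0, the protein at its base that carries the acidic P proteins, lay between 10.58 and 10.90 (median 10.79) in ANIT rats, against 10.37 to 10.59 (median 10.47) in vehicle rats. The groups met only at one end, with ANIT replicate 4 at 10.58 below vehicle replicates 1 and 6 at 10.59, and Rplp0 rose 1.22-fold (0.29 ± 0.08, adjusted p = 0.0128). Rpl12, which binds ribosomal RNA at the foot of the stalk, rose by 0.23 ± 0.08 (adjusted p = 0.0338) without overlap. Rpl6, a surface protein of the large subunit, was the last of the 10 called genes of that subunit (0.28 ± 0.09, adjusted p = 0.0404).

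In the small subunit 4 of 12 genes were called, with a median change of 0.26 over the 12, beside 10 of 30 and a median of 0.21 in the large subunit. Rps9, which lies near the mRNA entry site, was at 11.25 to 11.65 (median 11.57) in ANIT rats and at 10.96 to 11.27 (median 11.10) in vehicle rats. Its 1.33-fold rise (0.41 ± 0.10, adjusted p = 0.00502) held in 5 of 6 ANIT rats above all vehicle rats, while ANIT replicate 4 at 11.25 lay within the vehicle range. Rps13, a protein of the face that meets the large subunit, was at 7.05 to 7.70 (median 7.42) in ANIT and 6.73 to 7.31 (median 6.95) in vehicle rats. ANIT replicate 3 was the only ANIT rat within the vehicle range, and Rps13 rose 1.35-fold (0.43 ± 0.12, adjusted p = 0.0128). Rps3, also at the mRNA entry site and known in mammals for a role in DNA repair, was at 10.25 to 10.70 in ANIT and 9.84 to 10.30 in vehicle rats. It rose 1.39-fold with a wider error (0.48 ± 0.15, adjusted p = 0.0298), and Rps29, a zinc-binding protein, rose by 0.22 ± 0.08 (adjusted p = 0.0444), a call that leaving out 1 rat ended in 13 of 24 fits.

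**Figure D3:**
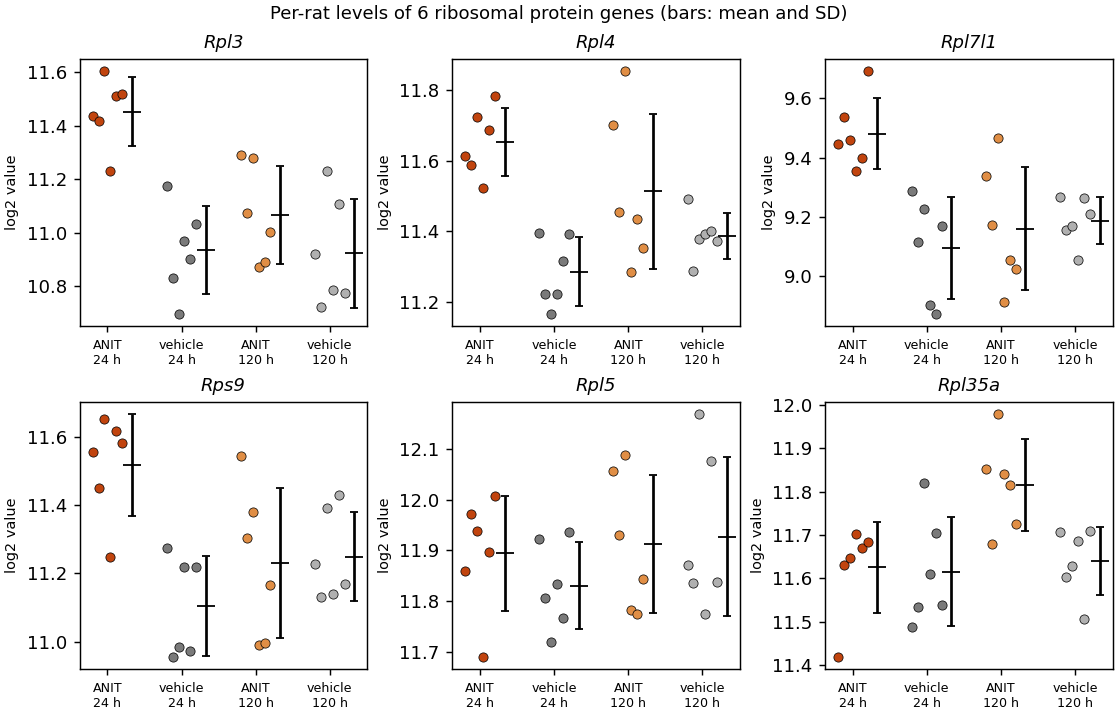
Log2 values of 6 ribosomal protein genes in each rat of the 4 groups, with bars for the group mean and SD (n = 6). Rpl3, Rpl4 and Rpl7l1 are above all vehicle rats in all ANIT rats at 24 h and Rps9 in 5 of 6, while Rpl5 and Rpl35a overlap at both times.

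Rps6, the protein that S6 kinases phosphorylate, was at 11.80 to 11.96 (median 11.91) in ANIT rats, against 11.65 to 11.79 (median 11.71) in vehicle rats. The groups did not overlap, but the change of 0.19 ± 0.07 missed the threshold (adjusted p = 0.0557). Rpsa, a small-subunit protein also known as the laminin receptor, was at 10.27 to 10.92 (median 10.83) in ANIT and 10.17 to 10.63 (median 10.39) in vehicle rats. ANIT replicate 4, at 10.27, stood far below the other 5 ANIT rats, and Rpsa was not called (0.36 ± 0.15, adjusted p = 0.0990).

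Rpl5 and Rpl11 bind 5S ribosomal RNA on the way into the large subunit, and in mammals they also bind Mdm2, the inhibitor of p53. Neither passed the test. Rpl5 was at 11.69 to 12.01 (median 11.92) in ANIT and 11.72 to 11.94 (median 11.82) in vehicle rats, a change of 0.06 ± 0.09 (adjusted p = 0.638, 95% confidence interval -0.11 to 0.24). The interval of Rpl11 reached from -0.03 to 0.39 around a change of 0.18 ± 0.10 (adjusted p = 0.240). The 5S ribosomal RNA control probe set varied widely between arrays at 24 h, from 6.60 to 8.40 in ANIT and 5.90 to 9.19 in vehicle rats, and was not called then (-0.68 ± 0.53, adjusted p = 0.431) or at 120 h (0.57 ± 0.53, adjusted p = 0.708). It was at 8.97, 8.82 and 9.19 on the narrow arrays of vehicle at 24 h, replicates 3 to 5, and at 5.90, 8.25 and 8.27 in replicates 1, 2 and 6. In ANIT rats of 120 h it was at 7.28, 7.24 and 7.25 in replicates 1 to 3. The narrow arrays of that group, replicates 4 to 6, were at 9.01, 9.01 and 9.04. The part of the array in this signal was not tested.

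The smallest changes among bright probe sets belonged to Rpl35a and Rpl21, both proteins of the large subunit. Rpl35a was at 11.42 to 11.70 (median 11.66) in ANIT rats and 11.49 to 11.82 (median 11.57) in vehicle rats, a change of 0.01 ± 0.08 (adjusted p = 0.946). Rpl21 had a change of 0.03 ± 0.06 (adjusted p = 0.729), with the smallest SD between rats of all 42 genes in both groups at 24 h, 0.04 in ANIT and 0.03 in vehicle rats. The groups overlapped for both genes.

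Of the paralogs of ribosomal proteins, only Rpl7l1 passed the test at 24 h. Rpl7l1, whose yeast relative Rlp7 acts in assembly of the large subunit, was at 9.36 to 9.69 (median 9.45) in ANIT rats, against 8.87 to 9.29 (median 9.14) in vehicle rats. All ANIT rats were above all vehicle rats, and Rpl7l1 rose 1.31-fold (0.39 ± 0.10, adjusted p = 0.00562). Rpl7 itself had a change of 0.13 (adjusted p = 0.375), and the difference between the 2 genes was not tested. The 3 genes with a change below 0 were all dim paralogs. Rpl26l1 was at 4.37 to 4.91 in ANIT and 4.38 to 5.40 in vehicle rats (-0.32 ± 0.15, adjusted p = 0.141). Rpl39l1 was at 4.51 to 5.48 in ANIT and 4.10 to 5.88 in vehicle rats (-0.32 ± 0.33, adjusted p = 0.527). Rpl3l, known for its expression in heart and skeletal muscle, was at 3.87 to 4.25 in ANIT and 3.96 to 4.36 in vehicle rats (-0.14 ± 0.09, adjusted p = 0.308). Rps4y2, the other dim gene, had a change of 0.30 ± 0.29 (adjusted p = 0.504). None of these 4 was called, and the groups overlapped for all of them.

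Other probe sets read the same transcripts with other probes. Of the 6 genes with more than 1 probe set, Rpl3 had changes of 0.52 and 0.47 at 24 h, Rpl7l1 of 0.39 and 0.54, Rpl14 of 0.35 and 0.21, Rpl7 of 0.13 and 0.13, and Rpsa of 0.36, 0.27 and 0.29. Both probe sets of Rpl3 (adjusted p = 0.0013 and 0.00108) and of Rpl7l1 (adjusted p = 0.00814 and 0.00376) were called by limma over all 31139 probe sets. Those of Rpl28 disagreed in sign, 0.28 for the bright one at a mean level of 11.6 and -0.07 for the dim one at 3.79. A further 41 probe sets, not counted among the 42 genes, name a ribosomal protein gene together with another gene, so their signal cannot be assigned to 1 gene. Their change at 24 h was above 0 in 41 of 41, with a median of 0.21 and a range of 0.05 to 0.72, and 8 were called higher (19.5%), against 7.89% of all probe sets. Ribosomal protein genes have many near-identical pseudogenes, and signal from those cannot be told apart from that of the parent gene.

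The calls at 24 h were then set against the start sequences printed above. Of the 10 genes with C and the pyrimidine run at the annotated start 4 were called, and of the 26 without it 8 were called. Such a run began somewhere in the window in 29 of 36 genes, so many of the 26 also carried one near the start. The median changes were 0.28 and 0.23. Rpl35a carries the run CTCTTTCC and had one of the smallest changes, while Rpl3, with the lowest adjusted p of the 42, has no such run at its annotated start. No test of this split was run.

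At 120 h, no ribosomal protein gene passed the test between ANIT and vehicle livers. Of the 42 genes 0 were called in either direction by limma, where 0.513% of all genes rose and 1.51% fell. At an unadjusted p under 0.05 there were 2, Rpl27 (0.16 ± 0.07, limma adjusted p = 0.254) and Rpl35a (0.18 ± 0.08, limma adjusted p = 0.303), against 13.9% of all genes. The change was above 0 in 31 of 42 genes, against 48.5% of all genes, with a median of 0.07 beside -0.0059 over all genes. In 0 of 42 genes did all ANIT rats lie above all vehicle rats, against 0.558% of all genes. The 95% confidence intervals of the 38 brighter genes lay between -0.38 and 0.39 on the log2 scale, folds of 0.767 and 1.31. The 41 probe sets naming several genes had 0 calls at 120 h, against 0.26% of all probe sets called higher, and 33 of 41 were above 0.

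For the genes that led at 24 h, the ANIT and vehicle rats of 120 h overlapped. Rpl3 was at 10.87 to 11.29 (median 11.04) in ANIT rats, against 10.72 to 11.23 (median 10.85) in vehicle rats, a change of 0.14 ± 0.10 (adjusted p = 0.561). Rpl4 was at 11.28 to 11.85 (median 11.45) in ANIT and 11.29 to 11.49 (median 11.39) in vehicle rats, a change of 0.13 ± 0.09 (adjusted p = 0.542). In each of these genes the 2 highest values came from ANIT replicates 1 and 3. Rps9 was at 10.99 to 11.54 (median 11.24) in ANIT and 11.13 to 11.43 (median 11.20) in vehicle rats, a change of -0.02 ± 0.10 (adjusted p = 0.959). Rplp0 had a change of 0.11 ± 0.08 (adjusted p = 0.584), Rps6 of 0.11 ± 0.07 (adjusted p = 0.472), and Rpsa of -0.03 ± 0.15 (adjusted p = 0.958). Rpl5 and Rpl11 each had a change of -0.01 (adjusted p = 0.961 and 0.981), and the dim paralogs ranged from -0.18 for Rps4y2 to 0.14 for Rpl3l. The Rps4y2 value rests on vehicle replicate 3, at 6.07 where the other vehicle rats were at 3.54 to 3.97; without that rat it was 0.20.

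The ANIT rats of 120 h with narrow arrays had lower averages than the other ANIT rats of that time. Averaged over the 42 genes, ANIT replicates 1, 2 and 3 were at 10.54, 10.37 and 10.59, and replicates 4, 5 and 6, the narrow arrays, at 10.22, 10.23 and 10.26. Vehicle rats of 120 h were at 10.21 to 10.46 (median 10.29). ANIT replicate 2 lay within that range, as replicates 4 to 6 did, and its array was the widest of its group (SD 2.04). The level of the spiked controls was 10.62, 10.68 and 10.55 in ANIT replicates 1 to 3 of 120 h and 11.40, 11.38 and 11.41 in replicates 4 to 6. In vehicle rats of 120 h it was 10.48 to 11.09. The part of array width or control level in these averages was not tested. Among vehicle rats of 24 h the lowest average, 10.14, was that of replicate 2, whose array was not narrow. At 24 h the same average was 10.32 to 10.54 (median 10.46) in ANIT rats and 10.14 to 10.31 (median 10.23) in vehicle rats, without overlap. Rps3 shows the split in a single gene: it was at 10.88, 10.28 and 10.91 in ANIT replicates 1 to 3 of 120 h and at 10.00, 9.96 and 10.07 in replicates 4 to 6. Without the 6 narrowest arrays the median change at 120 h was 0.21, with 39 of 42 genes above 0 and 0 called. No label used here says whether these arrays form a batch.

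**Figure D4:**
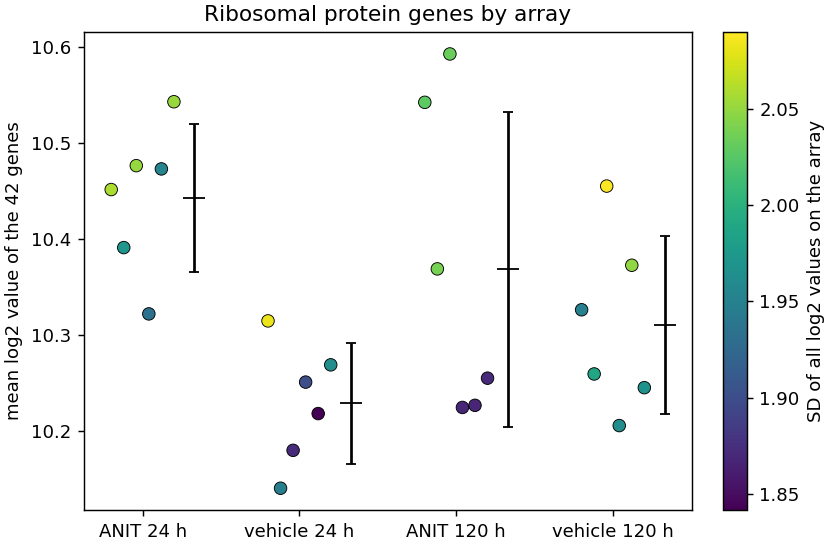
Mean log2 value of the 42 genes on each array, by group, with bars for the group mean and SD (n = 6), coloured by the SD of all values on the array. At 24 h the ANIT rats (10.32 to 10.54) lie above the vehicle rats (10.14 to 10.31), and at 120 h the 3 darkest ANIT points, the narrow arrays, lie at 10.22 to 10.26.

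Whether the effect of ANIT differed between the times was tested directly, as the change at 120 h minus that at 24 h. It was lower at 120 h for 2 of the 42 genes and higher for 0, where 11.0% of all genes were lower and 3.33% higher. The genes were Rpl7l1 (-0.41 ± 0.14, adjusted p = 0.0431) and Rps9 (-0.43 ± 0.14, adjusted p = 0.0451). For Rpl3 the difference was -0.37 ± 0.15 (adjusted p = 0.0895) and for Rpl4 -0.24 ± 0.12 (adjusted p = 0.197). The median over the 42 genes was -0.18, beside -0.022 over all genes. That median was -0.02 with the control level in the model, -0.08 with the beta-actin ratio and 0.01 without the 6 narrowest arrays, so its size and, in the last, its sign rest on these settings. Both calls were lost with the control level in the model (adjusted p = 0.168 for Rpl7l1 and 0.18 for Rps9), with the beta-actin ratio as a covariate (adjusted p = 0.42 and 0.716) and without the 6 narrowest arrays (adjusted p = 0.638 and 0.563). With 1 rat left out the count of 2 became 0 for ANIT 24 h replicates 1, 3 and 6, vehicle 24 h replicates 2 and 5, ANIT 120 h replicates 4, 5 and 6, and vehicle 120 h replicates 1, 3 and 5. It became 1 for ANIT 24 h replicates 2 and 5, vehicle 24 h replicates 3 and 4, and vehicle 120 h replicates 2 and 6, and 4 for ANIT 120 h replicate 3.

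Vehicle rats of 120 h and of 24 h were compared in the same way, as the level at 120 h minus that at 24 h. Of the 42 genes 0 were called by limma, against 0.00744% of all genes, and 0 had an unadjusted p under 0.05, against 12.2% of all genes. The change was above 0 in 35 of 42, against 57.3% of all genes, with a median of 0.09. Rps4y2 (0.41 ± 0.29) and Rps13 (-0.21 ± 0.12) marked the ends of the range, with adjusted p = 0.525 and 0.459. Without vehicle replicate 3 of 120 h the value of Rps4y2 was 0.03.

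Genes that build the ribosome or control its use were counted at the same threshold, beside the 12.9% of all genes that rose and the 5.31% that fell at 24 h. Ribosome biogenesis factors, which process ribosomal RNA and assemble the subunits, held the most calls: of 46 measured, 20 rose (43.5%) and 1 fell at 24 h, with a median change of 0.34. Rrp12, known from yeast as an export factor for ribosomal subunits, averaged 7.57 ± 0.37 in ANIT and 6.43 ± 0.50 in vehicle rats (SD, n = 6) and rose by 1.14 ± 0.18 in log2 units (standard error, limma adjusted p = 5.9e-05). Eif6, which keeps the large subunit from joining too early, rose by 0.66 ± 0.12 (adjusted p = 0.000356), Nop58, a core protein of box C/D particles, by 0.82 ± 0.18 (adjusted p = 0.00157), and Nip7, an assembly factor, by 0.70 ± 0.15 (adjusted p = 0.00184). With the control level in the model 15 rose and 1 fell, without the 6 narrowest arrays 5 rose and 1 fell with a median of 0.19, and adding the beta-actin ratio to the model left 3 that rose and 0 that fell. At 120 h 0 of 46 were called, with a median of -0.18 that was -0.10 with the control level in the model, where 2 were called lower, and -0.03 without the 6 narrowest arrays. The effect was lower at 120 h than at 24 h for 23 of the 46, against 11.0% of all genes. That count was 8 with the control level in the model, against 6.9% of all genes, and 2 with the beta-actin ratio, against 1.82%.

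RNA polymerase I transcribes ribosomal RNA, and 4 of 17 measured genes of its machinery rose at 24 h while 0 fell (median 0.19). They were Polr2l (0.36 ± 0.10, adjusted p = 0.00869) and Polr1c (0.49 ± 0.16, adjusted p = 0.0369), subunits that it shares with other polymerases, Taf1c (0.31 ± 0.09, adjusted p = 0.0178), part of its promoter selectivity factor, and the core subunit Polr1b (0.42 ± 0.15, adjusted p = 0.0494). With the control level in the model 3 rose and 1 fell, with the beta-actin ratio 1 rose and 0 fell, and without the 6 narrowest arrays 1 rose and 1 fell. Among elongation factors and other genes with TOP mRNAs, 3 of 11 rose and 1 fell (median 0.12). With the control level in the model 1 rose and 2 fell, and the median turned to -0.04. With the beta-actin ratio, and also without the 6 narrowest arrays, 1 rose and 1 fell, with medians of 0.02 and 0.05. Nap1l1, a histone chaperone, rose by 0.53 ± 0.09 (adjusted p = 6.1e-05), and the elongation factor subunits Eef1g and Eef1b2 rose by 0.30 ± 0.09 (adjusted p = 0.0270) and 0.32 ± 0.10 (adjusted p = 0.0289). Eif4b, which helps the helicase of translation initiation, went the other way and fell by 0.58 (standard error 0.08, adjusted p = 5.7e-06), with 9.94 ± 0.12 in ANIT and 10.52 ± 0.12 in vehicle rats (SD, n = 6). Rack1, a ribosomal protein outside the symbol rule and the only one of 3 such genes measured, had a change of 0.26 ± 0.10 and was not called (adjusted p = 0.0572).

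Genes of the S6 kinases and of mTOR control rose in 7 of 20 cases and fell in 0, with a median of 0.07. Ddit4, a stress-induced inhibitor of mTOR, averaged 7.28 ± 0.45 in ANIT and 6.16 ± 0.30 in vehicle rats and rose by 1.12 ± 0.16 (limma adjusted p = 1.7e-05). Eif4ebp1, a repressor of cap-dependent translation that mTOR inactivates, rose by 0.56 ± 0.15 (adjusted p = 0.00904), the cap-binding protein Eif4e by 0.28 ± 0.07 (adjusted p = 0.00472), and the kinase Rps6ka3 by 0.61 ± 0.19 (adjusted p = 0.0274). The others that rose were Rheb, which activates mTOR (0.27 ± 0.09, adjusted p = 0.0296), Rps6kb1, an S6 kinase (0.31 ± 0.10, adjusted p = 0.0339), and Myc, a transcription factor known to drive ribosome biogenesis (0.77 ± 0.26, adjusted p = 0.0393). The 7 thus include negative and positive regulators of translation. Among the 7, Rps6ka3 and Myc were dim, with mean levels of 3.99 and 4.91. Of this list 3 rose and 1 fell with the control level in the model, 1 rose and 0 fell with the beta-actin ratio, and 2 rose and 0 fell without the 6 narrowest arrays. In these 3 lists 0 genes were called at 120 h.

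**Figure D5:**
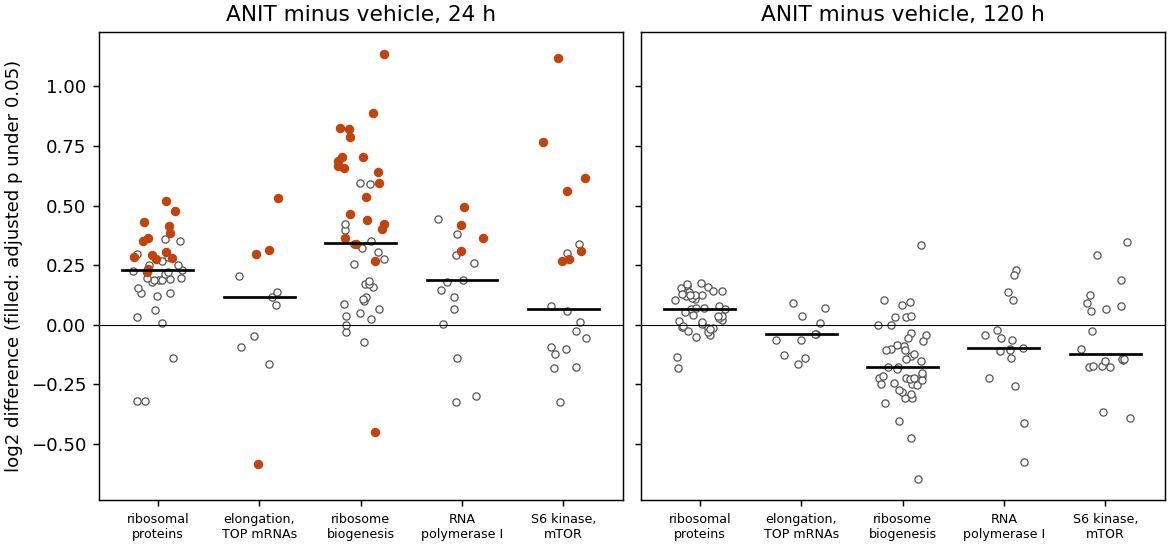
Difference between ANIT and vehicle rats at 24 h (left) and 120 h (right) for each gene of the ribosomal protein, elongation and TOP, ribosome biogenesis, RNA polymerase I and S6 kinase with mTOR lists, in log2 units. Filled points are called (adjusted p under 0.05), lines mark the list medians, 0.23, 0.12, 0.34, 0.19 and 0.07 at 24 h, and no point is filled at 120 h.

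The makeup of the tissue was read from marker genes, counted beside the same shares of all genes, 12.9% higher and 5.31% lower at 24 h, and 0.513% higher at 120 h. At 24 h, mean log2 levels over 9 of 10 hepatocyte markers, albumin among them, were 12.10 to 12.29 in ANIT rats, against 12.18 to 12.29 in vehicle rats, and 2 rose (Fgb and Hnf4a) while Cyp2e1 fell, but Hnf4a was at -0.12 (adjusted p = 0.435) with the mean of its probe sets. Over 14 of 15 leukocyte markers they were 6.12 to 6.44 in ANIT and 5.99 to 6.29 in vehicle rats. Of these markers 3 rose (S100a8 by 1.82, S100a9 by 0.87 and Lyz2 by 0.54), while Cd8a and the dim Cd79b (mean level 4.44) fell. Over 11 of 12 stellate and endothelial markers mean levels were 7.49 to 7.80 in ANIT and 7.56 to 8.01 in vehicle rats. There 1 was called higher and 3 lower, Lrat most (-1.25). Of 10 proliferation markers 0 rose and 2 fell at 24 h (Mcm2 and Ccnb1), and of 8 cholangiocyte markers 0 were called at 24 h and 2 rose at 120 h (Krt19 by 0.73 and Cftr by 0.49). These marker levels overlapped between ANIT and vehicle rats at 24 h in all 5 lists, and their part in the ribosomal protein values was not tested.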

How the data were processed

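Liver RNA of 24 rats was measured on 24 one-colour arrays. The deposited table holds log2 values per probe set. The submitters' processing notes name RMA and Partek, without a version or settings. The deposited columns do not share 1 distribution (SD of all values 1.84 to 2.09 and median 5.34 to 5.54 over the arrays), so whether their quantiles were equalised is not known. The values were used as deposited. The description label put each rat in its group, and replicate numbers only name rats. Of 31139 probe sets, 19068 named 1 gene in the platform annotation, and 13438 genes were each represented by the probe set with the highest mean. Symbols were checked against a current table through Entrez identifiers, and 79 probe sets, that of Rps9 among them, kept the name of the annotation.

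A model of the 4 group means was fitted to all genes with limma 3.58.1 in R 4.3.3 (lmFit, eBayes), with Benjamini-Hochberg adjustment over all genes and a threshold of 0.05. Changes are ANIT minus vehicle with the moderated standard error. Array measures were compared by two-sided exact permutation tests. Start sequences came from RefSeq and were matched by gene identifier or symbol. Plots were made in matplotlib 3.10.9 under Python 3.11.15.

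The genes and lists were chosen with earlier results of these data known. Full values went to the 8 called genes with the smallest p in a comparison, the paralogs, Rplp0, Rpsa, Rps6, Rpl5 and Rpl11, and to up to 4 called genes of each other list; other genes named were picked after their values were seen. Alternatives were quantile normalization, a shift to a common median, the control level, array SD or beta-actin ratio in the model, leaving out the 6 narrowest arrays, dim genes (mean under 5) or single rats, the mean of a gene's probe sets, only the groups compared, and an intensity trend. The combination of beta-actin ratio and control level was chosen after seeing the data. The fit was tested on simulated data of the 24 h comparison with 13438 genes. It recovered 0% of log2 changes of 0.25, 46% of those of 0.5, 30% of those of -0.5 and 98% of those of 1. Of its 92 calls 5 were false. The real comparison called 2451 genes, and the 42 genes had a smaller standard error (median 0.095) than all genes (0.134). The recovered shares therefore do not describe the 42 genes.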

Additional observations from a re-analysis of the deposited data

Results flagged for a closer look

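In the 42 genes, 168 groups of 6 rats were searched for a rat far from the rest of its group, and 7 groups (4.17%) held one; chance gives about 1 in 20 such groups. Among ANIT rats of 24 h, Rpl34 was at 12.3088 in replicate 6, where the next highest was 12.1787. Rpl35a was at 11.4188 in ANIT replicate 1 of 24 h, with the next lowest at 11.6313, and Rpsa at 10.2743 in ANIT replicate 4 of 24 h, with the next lowest at 10.7499. Among vehicle rats of 24 h, Rpl19 was at 12.6407 in replicate 1 (next highest 12.4817) and Rps15a at 10.5265 in replicate 2 (next lowest 10.7563). Vehicle replicate 3 of 120 h held the highest value of 2 genes, Rpl23a at 11.0562 (next highest 10.8417) and Rps4y2 at 6.0739 (next highest 3.9702).

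The effect of ANIT was called different between the times for 2 of the 42 genes in the limma fit, each lower at 120 h than at 24 h. Of all genes, 11.0% were lower and 3.33% higher. Both calls were lost with the control level, the array SD or the beta-actin ratio in the model, and without the 6 narrowest arrays. The difference was -0.41113 for Rpl7l1 (adjusted p = 0.0431) and -0.43122 for Rps9 (adjusted p = 0.0451).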

How the results depend on the processing

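The 14 ribosomal protein genes higher at 24 h became 8 with the control level in the model and 9 with the array SD. They became 4 without the 6 narrowest arrays, 23 with an intensity trend and 0 with the beta-actin ratio, alone or with the control level. Of all genes, 12.9% rose as reported, 9.62% with the control level, 11.1% with the array SD and 6.11% without the narrowest arrays. The share was 13.1% with an intensity trend, 3.44% with the beta-actin ratio and 6.58% with beta-actin ratio and control level. The count of ribosomal protein genes ranged from 8 to 20 when single rats were left out. Rpl3, Rpl4, Rpl7l1, Rpl28, Rpl39, Rplp0, Rps9 and Rps13 were called each of those 24 times. The count of genes lower ranged from 0 to 1, the 1 being Rpl26l1 without vehicle 24 h replicate 1. The median change at 24 h was 0.30 with a common median, 0.13 with the control level, 0.14 with the array SD and 0.15 with beta-actin ratio and control level, and at 120 h 0.21 without the narrowest arrays. The 2 genes that differed between times became 1 under quantile normalization and 0 with the control level, the array SD, the beta-actin ratio, both, or without the narrowest arrays, and ranged from 0 to 4 with single rats left out. The 5 other translation lists held 1, 11, 46, 17 and 20 measured genes. Of these, 36 were called at 24 h in either direction, where 18.2% of all genes were. The 36 became 7 with the beta-actin ratio, where 3.44% of all genes rose and 3.31% fell. They became 12 without the narrowest arrays (6.11% and 5.45% of all genes) and 20 with beta-actin ratio and control level (6.58% and 7.06%). With single rats left out the count ranged from 22 to 48 (22 without ANIT 24 h replicate 6, 23 without vehicle 24 h replicate 4). At 120 h 0 genes of these lists were called, against 2.02% of all genes. That 0 became 1 under quantile normalization and with the array SD, 3 with the control level and 2 with beta-actin ratio and control level. It ranged from 0 to 1 over single rats. The ANIT minus vehicle difference of the control level at 24 h ranged from -0.47 to -0.24 and that of the array SD from 0.0505 to 0.0988 with single rats left out; without vehicle 24 h replicate 1 they passed the exact permutation test (-0.4662, p = 0.0216, and 0.0988, p = 0.026). Hnf4a at 24 h was -0.1234 with the mean of its probe sets (adjusted p = 0.435), and Cd79b was 0.0035 with the beta-actin ratio (adjusted p = 0.996) and 0.0101 with beta-actin ratio and control level (adjusted p = 0.972). The cause of these moves was not tested. Counts of 0 at 120 h and between vehicle groups did not move for the ribosomal protein genes under any alternative run. No paired analysis was possible because replicate numbers were given in accession order and pair no rats. Bright probe sets lie near the top of the scale, and groups held 6 arrays. A gene that was not called is therefore not shown to be equal. Changes of 0.25 were not recovered in simulated data (0%), which held far fewer calls than the real comparison. That share does not describe the ribosomal protein genes, of which Rps29 (0.22) and Rpl12 (0.23) were called.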
